A study of Mus musculus with 8 samples.

Results

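Transcripts of 9 genes tied to glucocorticoid action were examined in mouse enterocytes, the epithelial cells that take up nutrients in the small intestine. The genes were Nr3c1, Hsd11b2, Fkbp5, Tsc22d3, Klf9, Zbtb16, Sgk1, Ddit4 and Sesn1. All 9 were on the array, where 23 of the 18443 probe sets carried one of these symbols as their single gene name. A probe set is a group of short probes read together as 1 value. Members were chosen by gene symbol alone, but they were picked with the genotype differences of these same arrays already known. Those differences are therefore given as a description and carry no test for the members. The set was put together as glucocorticoid-induced genes, although Nr3c1 is the receptor and Hsd11b2 an enzyme that removes the hormone.

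The study compared IE-Cpr-null mice with wild-type (WT) littermates, all C57BL/6 males of 2.5 to 3.0 months with no treatment named in the labels. The gene deleted in the intestinal epithelium of IE-Cpr-null mice is Cpr, which encodes NADPH-cytochrome P450 reductase, the electron donor of microsomal P450 enzymes. The line is known to carry a floxed Cpr gene and a Cre recombinase driven by the villin promoter, so Cpr is kept in other cell types of the gut wall. Each genotype had 4 arrays, and each array held RNA pooled from 2 of 8 mice, so every error below is a spread between pools. The deposited values were log2 signals of each probe set set to 0 at the median of the 4 WT arrays, so they show no expression level and only differences within a probe set can be read. For the same reason the defining markers of enterocytes could not be checked for presence. In tissue RNA of this kind, fewer cells of a type and less RNA per cell cannot be told apart.

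Glucocorticoids are steroid hormones of the adrenal cortex, and the intestinal epithelium can also make them locally. They enter the cell and bind the glucocorticoid receptor, which leaves its chaperones, moves to the nucleus and binds DNA at paired half-sites called glucocorticoid response elements. Typical targets feed back on the receptor, restrain growth signalling through mTORC1, and, in gut and kidney, raise sodium uptake. Blood glucocorticoids follow a daily rhythm and rise with stress.

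The 250 bases upstream of annotated transcription starts were searched for the half-site TGTTCT on both strands, and for AGAACA and TGTTCT separated by any 3 bases, the palindromic pair. Each palindromic pair also counts as a pair of half-sites. Windows of 6 of the 9 genes were examined, with 14 windows in all because Sgk1 had 6 annotated starts, Tsc22d3 had 3 and Sesn1 had 2. None of the 14 belonged to Nr3c1, Hsd11b2 or Zbtb16, so the member counts below say nothing of these genes. The palindromic pair occurred in 1 of the 14, upstream of the fifth Sgk1 start, where it began 189 bases before the start. Over all 32851 windows of the same length it occurred in 3, or 0.00913%, the other two being those of Acnat2 and Gm35041. A half-site occurred in 4 of the 14 member windows, 3 of Sgk1 and 1 of Tsc22d3, against 16.1% of all windows. These are matches of letters and say nothing of binding. The windows below come from RefSeq on GRCm38.p6 and are written 5′ to 3′ on the strand of the gene, with half-sites in capitals, including those within the palindromic pair. They show the Sgk1 window with the palindromic pair (chr10:21993640-21993889, plus strand), the Tsc22d3 window with a half-site (chrX:140600523-140600772, minus strand) and, for comparison, the window of Fkbp5 (chr17:28486150-28486399, minus strand), the member with the widest spread between pools, in which these letters were not found.
Sgk1: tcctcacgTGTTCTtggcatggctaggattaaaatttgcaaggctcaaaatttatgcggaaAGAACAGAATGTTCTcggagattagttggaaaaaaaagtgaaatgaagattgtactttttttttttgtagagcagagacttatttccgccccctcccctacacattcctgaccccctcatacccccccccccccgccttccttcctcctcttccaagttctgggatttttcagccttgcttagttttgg
Tsc22d3: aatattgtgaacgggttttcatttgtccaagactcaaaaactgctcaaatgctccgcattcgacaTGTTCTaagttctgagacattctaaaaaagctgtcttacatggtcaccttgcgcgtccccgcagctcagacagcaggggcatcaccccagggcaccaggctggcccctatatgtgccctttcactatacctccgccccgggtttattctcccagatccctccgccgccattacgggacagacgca
Fkbp5: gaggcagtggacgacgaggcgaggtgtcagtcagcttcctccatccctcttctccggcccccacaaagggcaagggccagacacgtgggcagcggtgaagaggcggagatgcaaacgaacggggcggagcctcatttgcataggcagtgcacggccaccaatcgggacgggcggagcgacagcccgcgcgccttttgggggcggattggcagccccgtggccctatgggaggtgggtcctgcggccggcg

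**Figure D1:**
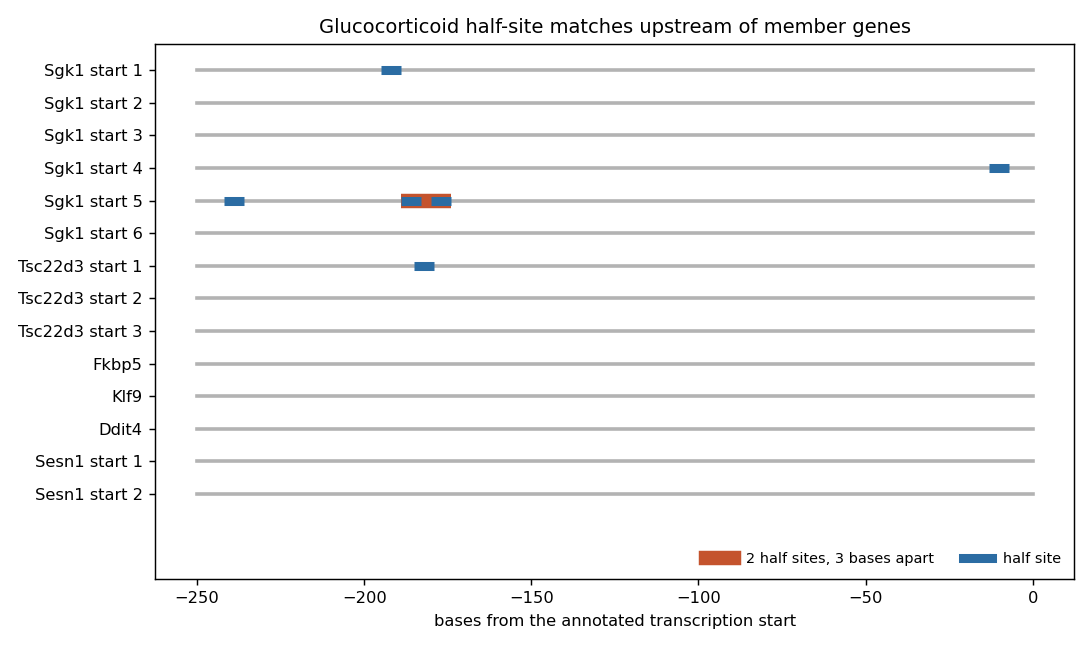
Positions of half-site matches in the 14 upstream windows of 6 member genes, in bases from the annotated start (0, right), with windows of 1 gene numbered from its 5′ end. The palindromic pair lies in the window of the fifth Sgk1 start, and the windows of Fkbp5, Klf9, Ddit4 and Sesn1 hold no match.

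Some arrays stood apart in markers of other cell types. The 12 measured markers of smooth muscle and stroma had a mean of 1.78 on WT 2 and 4.51 on IE-Cpr-null 1, against -0.48 to 0.17 on the other arrays. The 13 measured hepatocyte markers had means of 4.80 and 2.90 on IE-Cpr-null 2 and 3 and at most 0.19 elsewhere. The 11 pancreatic acinar markers had means of -4.81 on WT 3, -2.03 on IE-Cpr-null 1 and -4.91 to -4.79 on IE-Cpr-null 2 to 4, against -0.60 to 1.51 on the other WT arrays. Paneth cell markers had a mean of 1.17 on IE-Cpr-null 1 and of -0.80 to 0.66 elsewhere. The mean of the 14 enterocyte markers stayed between -0.11 and 0.03 on all 8 arrays. Single enterocyte markers varied more, with Apob at -0.76 on WT 1. Over 13 such lists, the median difference between genotypes ran from -3.29 for acinar cells to 1.83 for hepatocytes, with 0 of 107 markers past the limma threshold used below and 15 with p under 0.05 before adjustment. Apart from muscle and stroma (0.41), the other lists had medians of -0.49 for macrophages and dendritic cells, -0.30 for Paneth, -0.25 for enteroendocrine, -0.15 for goblet, -0.06 for proliferating crypt cells and -0.02 for enterocytes, 0.04 for endothelial and for erythroid cells, 0.14 for T cells and 0.19 for B cells. The arrays WT 2 and IE-Cpr-null 1 are called muscle-rich below, and IE-Cpr-null 2 and 3 hepatocyte-rich. The part of these transcripts in the member values was not tested, and several member differences are given without these arrays below.

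Differences are given as IE-Cpr-null minus WT on the log2 scale, with the standard error (SE) from the spread of the pools and n = 4 arrays per genotype. Of the 23 member probe sets, 14 were lower and 9 higher in IE-Cpr-null, with a median difference of -0.23 against 0.02 over all probe sets. The lower ones belonged to Fkbp5, Klf9, Sgk1, Sesn1 and Tsc22d3, and the receptor gene Nr3c1 lay on the higher side. No member probe set (0 of 23) passed an adjusted p of 0.05 in limma, where 0.0217% of all probe sets did (3 higher and 1 lower). At an unadjusted p under 0.05 there were 3 of 23 (13.0%), the Sgk1 probe set and 2 of Sesn1, against 7.4% of all probe sets. With array weights, an alternative that lets arrays differ in precision, limma passed 2 of 23, both of Sesn1, against 4.02% of all. Because the members were put together with this contrast known, nothing is read from these counts.

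**Figure D2:**
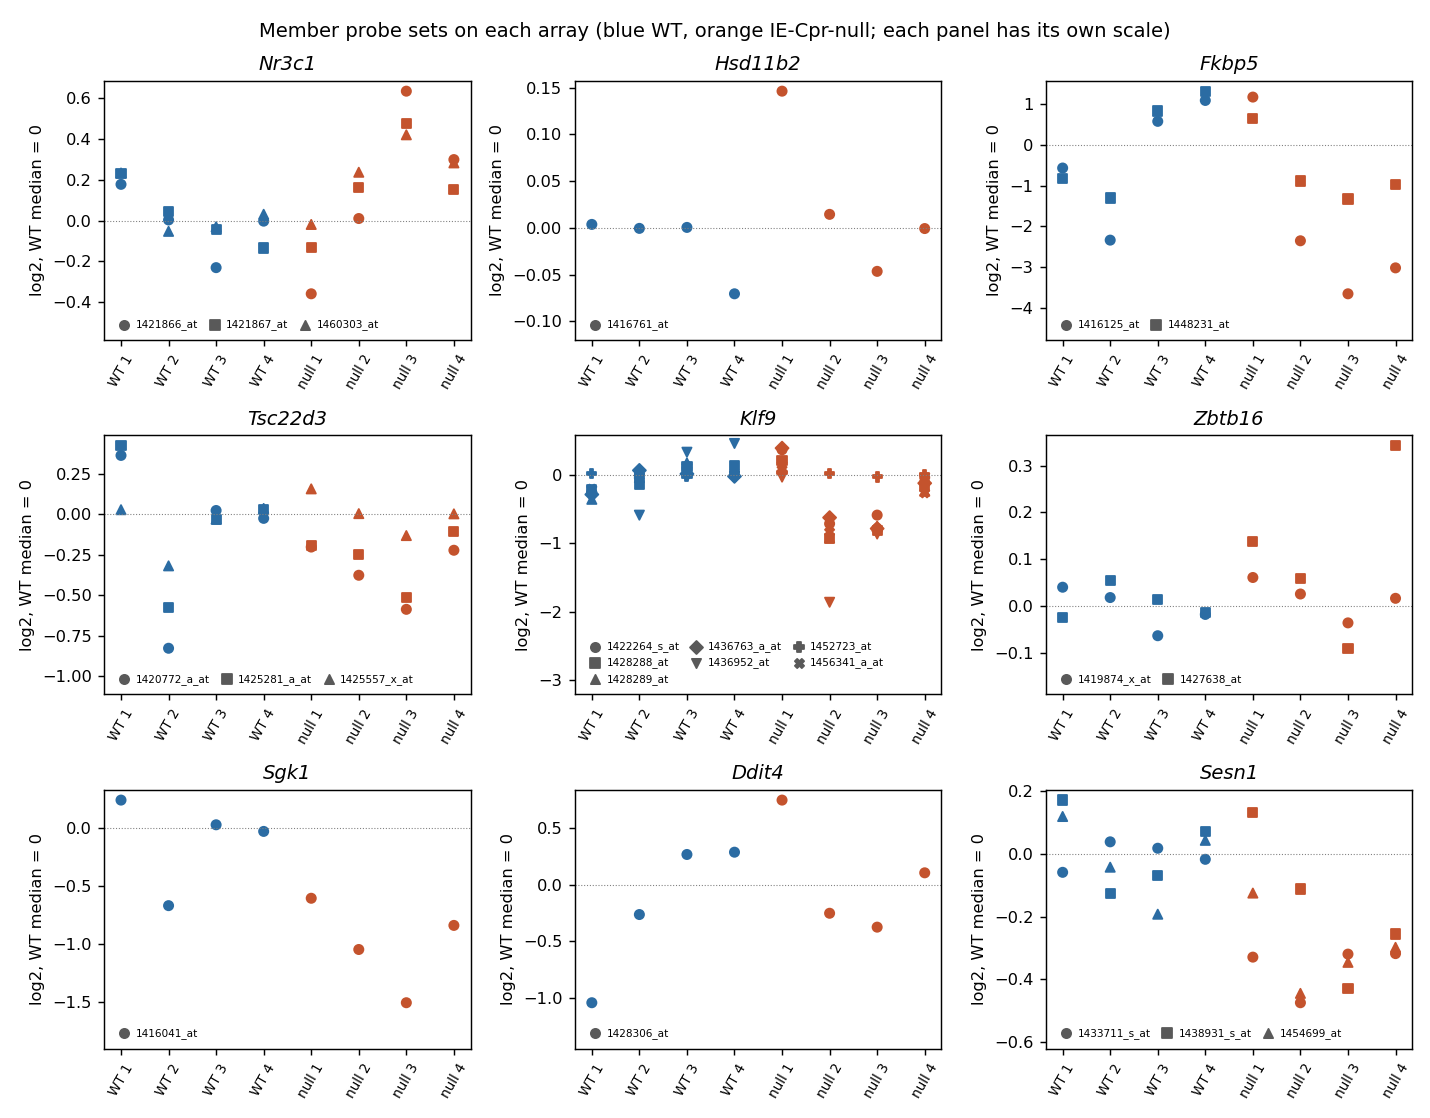
Values of all 23 member probe sets on the 4 WT arrays (blue) and 4 IE-Cpr-null arrays (orange, written null), as log2 with the WT median at 0 and a separate scale for each gene; marker shapes stand for probe sets. Fkbp5 spans the widest range on both genotypes, and the Sesn1 probe set 1433711_s_at is the only one with all 4 IE-Cpr-null arrays below all WT arrays.

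Nr3c1 encodes the glucocorticoid receptor and had 3 probe sets. In 1460303_at the WT arrays 1 to 4 read 0.23, -0.05, -0.03 and 0.03, and the IE-Cpr-null arrays 1 to 4 read -0.02, 0.24, 0.42 and 0.28. IE-Cpr-null arrays 2, 3 and 4 thus stood above every WT array in this probe set, and array 1 lay among the WT arrays. The difference was 0.18 (SE 0.112), and it was 0.14 (SE 0.146) in 1421867_at and 0.16 (SE 0.227) in 1421866_at. All of them are small, and in the last-named probe set the genotypes overlapped at both ends, with IE-Cpr-null array 1 the lowest of all at -0.36 and array 3 the highest at 0.63. Without IE-Cpr-null arrays 2 and 3 the differences of 1421866_at and 1421867_at were -0.02 and -0.01, and that of 1460303_at 0.09. Without the muscle-rich arrays they were 0.33, 0.25 and 0.23.

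Hsd11b2 encodes the dehydrogenase that turns active glucocorticoid into its inactive keto form, which protects the mineralocorticoid receptor in sodium-absorbing epithelium. Its single probe set read 0.004, -0.001, 0.001 and -0.071 on the WT arrays and 0.15, 0.01, -0.05 and -0.001 on the IE-Cpr-null arrays. The genotypes overlapped, and the difference of 0.05 (SE 0.0451) was 0.01 (SE 0.0262) without IE-Cpr-null 1.

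Fkbp5 encodes a co-chaperone that lowers hormone binding by the receptor, and its induction forms a feedback loop. Its probe set 1416125_at read -0.57, -2.34, 0.57 and 1.08 on the WT arrays. On the IE-Cpr-null arrays it read 1.16, -2.35, -3.65 and -3.01. IE-Cpr-null arrays 2 to 4 were therefore below every WT array, the lowest WT array (2) almost reached them, and IE-Cpr-null array 1 was above every WT array. The difference was -1.65 with an SE of 1.32, so that it was of the order of its own error. The second probe set, 1448231_at, read -0.82, -1.30, 0.82 and 1.31 on the WT arrays, and the IE-Cpr-null arrays gave 0.64, -0.89, -1.33 and -0.98, a difference of -0.64 (SE 0.768). Both probe sets placed WT 3, WT 4 and IE-Cpr-null 1 high and the remaining arrays low, so the arrays did not separate by genotype. The WT pools alone spanned 10.7-fold in 1416125_at and 6.12-fold in 1448231_at.

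Leaving out the muscle-rich arrays gave Fkbp5 differences of -3.37 (SE 0.616) in 1416125_at and -1.50 (SE 0.66) in 1448231_at. In both probe sets, and in Sgk1 below, these were the lowest WT array and the highest IE-Cpr-null array. Leaving them out therefore favours a larger difference with a smaller error. Without IE-Cpr-null 1 alone the Fkbp5 differences were -2.69 (SE 0.949) and -1.07 (SE 0.755). Without IE-Cpr-null 2 and 3 they were -0.61 (SE 1.71) and -0.17 (SE 1.07). With quantile normalization they were -0.35 (SE 2.21) and -0.25 (SE 1.77), and with any 1 array left out they ran from -2.69 to -1.09 and from -1.08 to -0.20. Quantile normalization gives all arrays the same spread, whereas the deposited values spread less on every WT array than on any IE-Cpr-null array. It therefore alters the genotypes unequally, here and for the members below.

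Tsc22d3 encodes GILZ, a leucine zipper protein that carries much of the anti-inflammatory action of glucocorticoids. In 1420772_a_at the WT arrays read 0.36, -0.83, 0.02 and -0.02, and the IE-Cpr-null arrays -0.20, -0.38, -0.59 and -0.22. All 4 IE-Cpr-null arrays were below 0, but WT 2 was lower than any of them. The difference was -0.23 (SE 0.268), with -0.23 (SE 0.224) in 1425281_a_at and 0.08 (SE 0.103) in 1425557_x_at. Without WT 2 and IE-Cpr-null 1 the difference of 1420772_a_at became -0.52 (SE 0.162) and that of 1425557_x_at -0.05 (SE 0.0496). In both probe sets these were the lowest WT and the highest IE-Cpr-null array, so leaving them out favours a lower difference. Without the hepatocyte-rich arrays 1420772_a_at and 1425281_a_at differed by -0.10 and -0.11, and without WT 1, the highest WT array, by -0.07 each. With quantile normalization 1420772_a_at came to 0.26 (SE 0.684), on the other side of 0.

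Klf9 encodes a Krüppel-like transcription factor that is induced by glucocorticoids and thyroid hormone. It had 7 probe sets, of which 6 were lower in IE-Cpr-null, by 0.18 to 0.67, and 1452723_at was flat at 0.01 (SE 0.0191). In 1456341_a_at the WT arrays read -0.21, -0.02, 0.12 and 0.02, and the IE-Cpr-null arrays 0.15, -0.83, -0.79 and -0.26. The low values were thus those of IE-Cpr-null 2 and 3, array 4 lay just under the lowest WT array, and array 1 was above all WT arrays. The difference was -0.41 (SE 0.244). The probe set with the largest difference, 1436952_at, differed by -0.67 (SE 0.503) and reached -1.86 on IE-Cpr-null 2. IE-Cpr-null 2 and 3 were also the hepatocyte-rich arrays, and without them the difference of 1456341_a_at was -0.03 (SE 0.162) and that of 1436952_at -0.01 (SE 0.383). In 1422264_s_at, 1428288_at and 1436763_a_at it was then on the other side of 0, at 0.22, 0.04 and 0.19.

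Zbtb16 encodes PLZF, a zinc finger repressor that is strongly induced by glucocorticoids in several tissues. Its 2 probe sets hardly moved on the WT arrays, between -0.03 and 0.05 in 1427638_at and between -0.06 and 0.04 in 1419874_x_at. In 1427638_at the IE-Cpr-null arrays read 0.14, 0.06, -0.09 and 0.34. They lay on both sides of the WT arrays, and the difference was 0.10 (SE 0.0919), with 0.23 (SE 0.0682) without the hepatocyte-rich arrays and 0.03 (SE 0.0595) without IE-Cpr-null 4. In 1419874_x_at the difference was 0.02 (SE 0.0302).

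Sgk1 encodes a kinase that raises epithelial sodium transport by keeping the ubiquitin ligase NEDD4L off the sodium channel. Its single probe set read 0.24, -0.67, 0.03 and -0.03 on the WT arrays and -0.61, -1.05, -1.51 and -0.84 on the IE-Cpr-null arrays. IE-Cpr-null 2, 3 and 4 lay below every WT array, and IE-Cpr-null 1 lay just above WT 2. The difference was -0.89 (SE 0.275), a WT level 1.86 times the IE-Cpr-null level. It was -1.03 (SE 0.285) without IE-Cpr-null 1 and -1.21 (SE 0.214) without both muscle-rich arrays, WT 2 and IE-Cpr-null 1. With the hepatocyte-rich arrays left out it was -0.62 (SE 0.303), and with quantile normalization -0.45 (SE 0.414). This is the gene whose upstream window above carries the palindromic pair.

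Ddit4 encodes REDD1, which inhibits mTORC1 after glucocorticoids, hypoxia or energy stress. Its probe set read -1.04, -0.26, 0.26 and 0.28 on the WT arrays, against 0.74, -0.25, -0.37 and 0.10 on the IE-Cpr-null arrays. The extremes were WT 1 at the bottom and IE-Cpr-null 1 at the top, and the genotypes overlapped widely. The difference was 0.24 (SE 0.399), with 0.01 (SE 0.386) without IE-Cpr-null 1 and 0.61 (SE 0.505) without the hepatocyte-rich arrays. It was -0.01 (SE 0.46) without the muscle-rich arrays and -0.04 (SE 0.332) without WT 1.

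Sesn1 encodes sestrin 1, a stress-induced protein that also restrains mTORC1. It had the difference with the smallest error relative to its size. In 1433711_s_at the WT arrays read -0.06, 0.04, 0.02 and -0.02, and the IE-Cpr-null arrays -0.33, -0.47, -0.32 and -0.32. The genotypes did not overlap, and IE-Cpr-null 1 lay with the other IE-Cpr-null arrays. The difference was -0.35 (SE 0.0436), a WT level 1.28 times the IE-Cpr-null level. This was the only one of the 23 member probe sets (4.35%) with every IE-Cpr-null array below every WT array, and 2.47% of all probe sets had that pattern. The other Sesn1 probe sets pointed the same way with more overlap. In 1454699_at the difference was -0.28 (SE 0.0943), with the IE-Cpr-null arrays at -0.13, -0.44, -0.35 and -0.30 and the lowest WT array at -0.19. In 1438931_s_at it was -0.18 (SE 0.136), and IE-Cpr-null 1 stood at 0.13, among the WT arrays. Without the hepatocyte-rich arrays these were -0.19 and -0.07, and without the muscle-rich arrays -0.35 and -0.32. The difference of 1433711_s_at was -0.37 without IE-Cpr-null 1, -0.32 without the hepatocyte-rich arrays, -0.35 without the muscle-rich ones and -0.27 with quantile normalization. The name of this probe set ends in _s_at, which marks probes shared by more than 1 transcript.

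**Figure D3:**
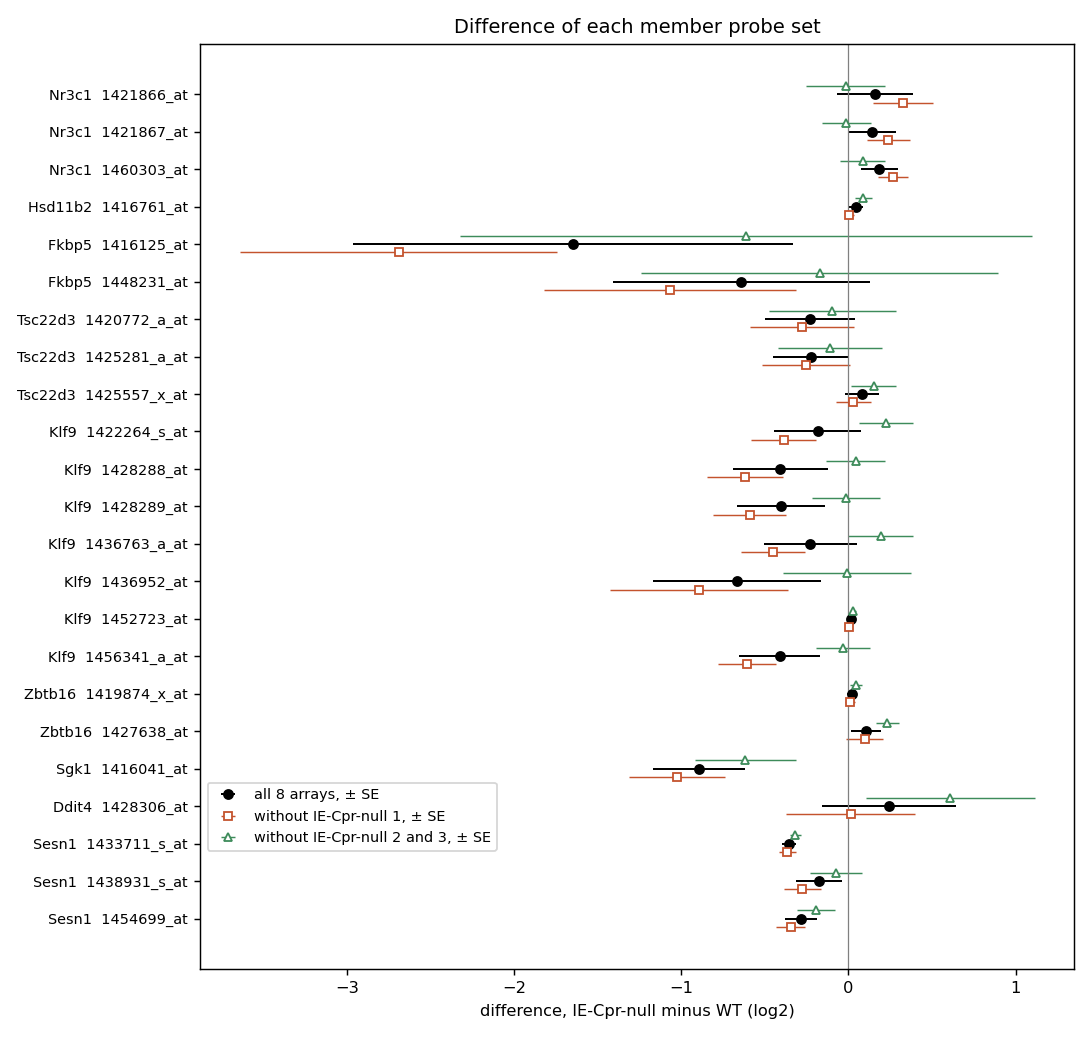
Difference of each member probe set, IE-Cpr-null minus WT in log2 with its SE, over all 8 arrays (black), without IE-Cpr-null 1 (orange squares) and without IE-Cpr-null 2 and 3 (green triangles). Fkbp5 moves to -2.69 and to -0.61 in 1416125_at, Klf9 lies between -0.03 and 0.22 without IE-Cpr-null 2 and 3, and Sesn1 1433711_s_at stays between -0.37 and -0.32.

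Gene values, the mean of a gene's probe sets, were then compared across arrays. Among the IE-Cpr-null arrays, array 3 was the lowest in 7 of the 9 genes, the exceptions being Klf9, lowest on array 2, and Nr3c1, which was highest on array 3. Array 1 was the highest IE-Cpr-null array in 7 of 9, the exceptions being Zbtb16, highest on array 4, and Nr3c1, lowest on array 1. Nr3c1 therefore ran opposite to most other members within this genotype. Without array 1, 5 of the 23 probe sets (21.7%) had all remaining IE-Cpr-null arrays below all WT arrays, where 5.14% of all probe sets did. They were 2 of Sesn1, 1416125_at of Fkbp5, 1456341_a_at of Klf9 and that of Sgk1. Leaving out the array that was highest in most members favours such a count. The members were also picked with this contrast known, so nothing is read from this share.

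The WT pools also differed among themselves, in a way that the genotype contrast did not enter. Fkbp5, Klf9 and Ddit4 were all lower on WT 1 and 2 than on WT 3 and 4. Tsc22d3 and Sgk1 followed another order, lowest on WT 2 and highest on WT 1. The standard deviation within genotypes was 1.86 in Fkbp5 1416125_at, above that of 99.6% of all probe sets. It was 0.564 in Ddit4 (above 96.6%), 0.388 in Sgk1 (above 92.8%) and 0.0617 in Sesn1 1433711_s_at (above 23.7%). Of the 23 member probe sets, 19 lay above the median of 0.12 over all probe sets.

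**Figure D4:**
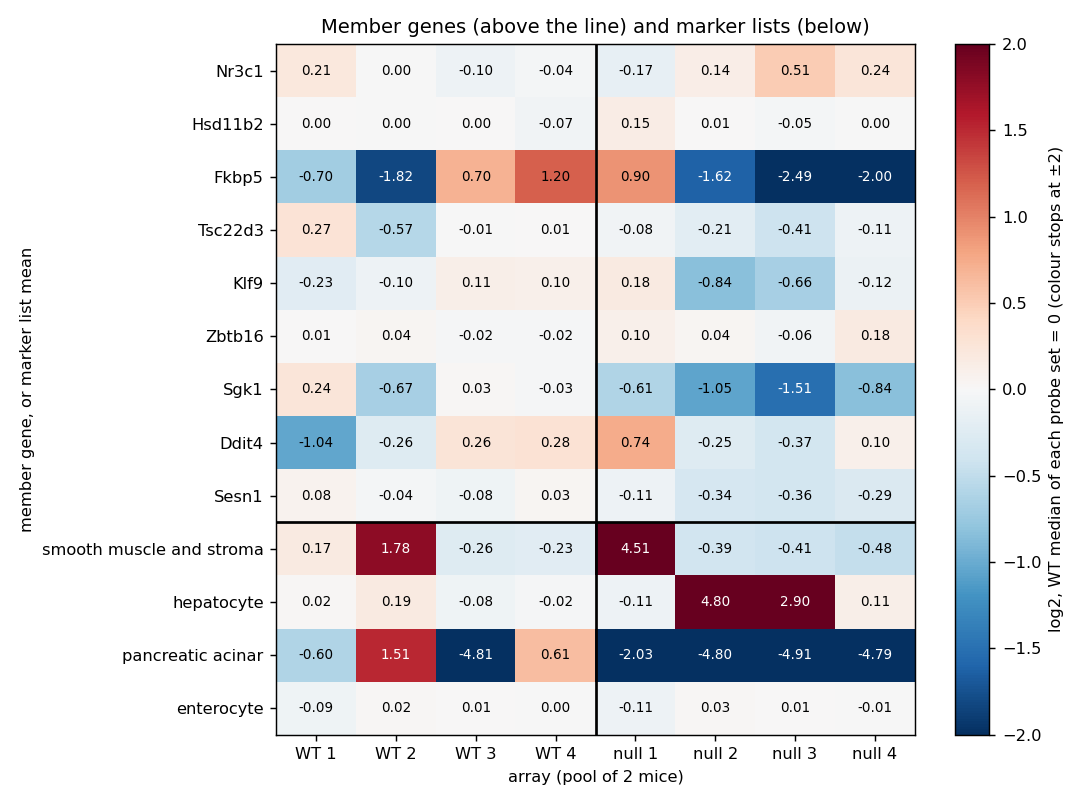
Gene values of the 9 members (above the line) and means of 4 marker lists (below) on each array, in log2 with the WT median of each probe set at 0; colours stop at 2 on either side and each cell prints its value. Low Fkbp5 values fall on WT 2 and IE-Cpr-null 2 to 4, and the muscle and hepatocyte means stand out on WT 2 and IE-Cpr-null 1 and on IE-Cpr-null 2 and 3.

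For the members with the largest gene differences, the genes closest over the 8 arrays were found by the mean absolute log2 difference. Closest to Sgk1 were Tubb2b, a tubulin gene (0.187), Klf15, a Krüppel-like factor induced by glucocorticoids and fasting (0.236), and Cyp27a1, a sterol hydroxylase (0.239). The WT arrays gave -0.03, -0.26, 0.03 and 0.22 for Klf15, and the IE-Cpr-null arrays -0.22, -1.19, -1.24 and -0.69. Its arrays overlapped only through WT 2 and IE-Cpr-null 1, as those of Sgk1 did. The genes closest to Fkbp5 were Clps, the pancreatic colipase gene (0.721), Pde2a (0.777) and Col3a1, a collagen gene of stroma (0.783). This measure grows with a gene's own spread, which was widest in Fkbp5. The distances of the Fkbp5 and Sgk1 neighbours are therefore not compared.

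Other genes of the pathway were taken from 12 lists and tested per gene with limma over all 10401 genes, of which 0.0288% passed an adjusted p of 0.05. Of the 207 measured genes in these lists 1 passed, Mt1, and 38 (18.4%) had an unadjusted p under 0.05, against 8.69% of all genes. The median difference over all genes was 0.02. Lists are described by counts and medians, and each value below is a gene value. The lists were chosen with earlier results of these data known, so nothing is read from these shares or the list counts below.

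Paralogs of the members lay on both sides of 0, 8 higher and 4 lower, with a median of 0.07. In limma 0 of 12 passed, while an unadjusted p under 0.05 was seen in 2, Klf10 at 0.57 (SE 0.168, adjusted p = 0.333) and Sesn3 at 0.39 (SE 0.129, adjusted p = 0.392). Sesn3, a sestrin like Sesn1, thus lay above 0 where Sesn1 lay below. The other 10 paralogs ran from -0.49 in Sgk3 to 0.41 in Hsd11b1. Hsd11b1 encodes the enzyme that regenerates active glucocorticoid, and it was at 1.60 on IE-Cpr-null 2, the array richest in hepatocyte transcripts, and between -0.03 and 0.04 on all others. Sgk2 (0.10, SE 0.227) and Sesn2 (0.07, SE 0.107) differed by less than their error.

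Receptor chaperones and co-regulators had 14 of 17 genes higher (median 0.11), with 0 past the limma threshold and 3 with p under 0.05 before adjustment. Ncoa1, a receptor coactivator, differed by -0.20 (SE 0.0454, adjusted p = 0.276) and Hsp90aa1, an inducible form of the chaperone HSP90, by 0.30 (SE 0.124, adjusted p = 0.504). The list mean was between 0.06 and 0.14 on the IE-Cpr-null arrays and between -0.03 and -0.01 on the WT arrays. Centring on the WT median draws WT means toward 0, so nothing is read from this separation. Of 22 listed genes of hormone synthesis, activation and removal, 12 were measured. The synthesis genes Cyp11a1, Cyp11b1, Cyp17a1, Cyp21a1 and Hsd3b1 were not among them, so nothing is said of these. Of the 12, 0 were past the threshold and 1 had an unadjusted p under 0.05 in limma, with a median of 0.02. The electron carrier gene Fdx1 differed by -0.31 (SE 0.105, adjusted p = 0.41) and Nr0b2, the receptor SHP, by -0.54 (SE 0.329, adjusted p = 0.697).

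Other genes known to respond to the receptor in some tissue went both ways, with 23 of 39 higher and 16 lower and a median of 0.04. Mt1, a metallothionein gene, rose by 5.15 (SE 0.185, limma adjusted p = 3.05e-05), with all IE-Cpr-null arrays between 5.00 and 5.26 and all WT arrays between -0.34 and 0.34. Its neighbour Mt2, named after its values were seen, is induced by the same hormone and differed by 0.79 (SE 0.789) with overlapping arrays. With quantile normalization, which gives arrays of unlike spread the same distribution, Mt1 did not pass. Its probe sets differed in size, and the one without shared probes gave 7.29. At an unadjusted p under 0.05 there were 13 of the 39, 7 higher and 6 lower. Txnip, a thioredoxin inhibitor, differed by 0.31 (SE 0.0799, limma adjusted p = 0.277). Pdk4, a kinase that spares glucose in fasting, differed by -1.65 (SE 0.49, limma adjusted p = 0.328) and was named after its values were seen. Inflammatory genes known to be repressed by glucocorticoids had a median of 0.01 over 16 genes (-0.003 when arrays were centred on their medians) and, in limma, 0 past the threshold and 0 with an unadjusted p under 0.05. The smallest p among them were those of the chemokine genes Ccl5 (0.15, SE 0.106, adjusted p = 0.768) and Ccl20 (-0.34, SE 0.3, adjusted p = 0.836). Whether the genes of this list were above background cannot be read from values centred on the WT median.

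Genes of the mineralocorticoid receptor, SGK1 substrates and salt transport had 10 of 18 genes lower (median -0.04), or 13 of 18 with quantile normalization or median centring. In limma there were 0 past the threshold and 4 with an unadjusted p under 0.05, all 4 lower. These were the chloride channel gene Cftr (-0.76, SE 0.239, adjusted p = 0.349), the chloride exchanger gene Slc26a3 (-0.34, SE 0.105, adjusted p = 0.349), Ndrg2, an SGK1 substrate (-0.72, SE 0.262), and Scnn1a, the alpha subunit of the epithelial sodium channel (-0.31, SE 0.112). The list mean was 0.25 on IE-Cpr-null 1 and -0.56 to -0.22 on IE-Cpr-null 2 to 4, but the mean on array 1 was carried by few genes, among them Kcne3 (1.91), Slc12a2 (1.80), Kcnq1 (1.24) and Nedd4 (0.87). Cftr, Slc26a3, Ndrg2 and Scnn1a were all below 0 there, at -0.40, -0.40, -0.11 and -0.18. That array also had the highest means of Paneth (1.17) and proliferating crypt markers (0.70). In the mTORC1 list 0 of 16 passed and 2 had an unadjusted p under 0.05, Sesn3 and Rheb, the GTPase that activates mTORC1 (-0.15, SE 0.0674, adjusted p = 0.569), with a median of 0.06. In the list of other p53 targets, which leaves out the member Sesn1, 0 of 19 passed and 3 had an unadjusted p under 0.05, with a median of 0.02. Rrm2b differed by -0.45 (SE 0.152, adjusted p = 0.392) and Cdkn1a, the p21 inhibitor gene, by 0.19 (SE 0.0639, adjusted p = 0.43).

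FOXO and fasting genes, several of which are also glucocorticoid targets, had 0 of 20 past the threshold and 10 at an unadjusted p under 0.05, 5 higher and 5 lower (median -0.03). Ppargc1a, the coactivator of mitochondrial and fasting programmes, came closest at -0.40 (SE 0.055, adjusted p = 0.0793), with the IE-Cpr-null arrays between -0.52 and -0.29 and the WT arrays between -0.01 and 0.08. The list shares Txnip and Pdk4 with the receptor targets. Hypoxia and amino acid response genes, which can induce Ddit4, had 0 of 21 past and 1 at an unadjusted p under 0.05 (median 0.04). Car9, a hypoxia-induced carbonic anhydrase, differed by -0.47 (SE 0.151, adjusted p = 0.368) and Adm, adrenomedullin, by 0.89 (SE 0.486, adjusted p = 0.632).

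Clock genes had 0 of 18 past and 2 at an unadjusted p under 0.05 (median -0.04). Hlf, a clock output factor, differed by -0.95 (SE 0.293, adjusted p = 0.347) and Csnk1e, a clock kinase, by 0.44 (SE 0.159, adjusted p = 0.422). Per1, which is both a clock gene and a direct glucocorticoid target, read 0.05, -0.66, 0.67 and -0.05 on the WT arrays, against 0.12, -0.91, -1.01 and -0.58 on the IE-Cpr-null arrays (difference -0.60, SE 0.373), and was named after its values were seen. Its low arrays were those that were lowest for Fkbp5: WT 2 and IE-Cpr-null 2 to 4. The hour at which tissue was taken is not given in the sources used here. Immediate early genes had 19 of 19 higher (median 0.16), or 18 of 19 with quantile normalization (median 0.11), with 0 past and 4 at an unadjusted p under 0.05. Jun differed by 0.28 (SE 0.0581, adjusted p = 0.217) and Klf4 by 0.16 (SE 0.0503, adjusted p = 0.437).

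**Figure D5:**
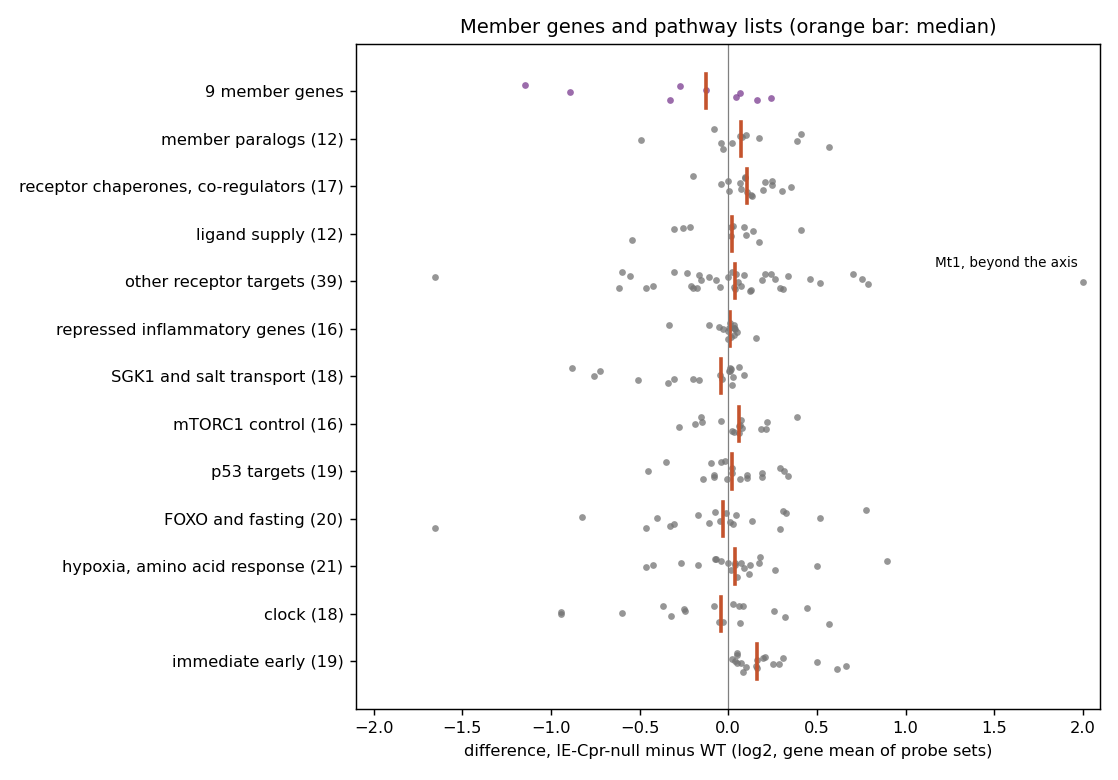
Gene differences, IE-Cpr-null minus WT in log2, for the 9 members and the measured genes of 12 pathway lists (number in brackets), 1 point a gene, with the list median as an orange bar. Medians lie between -0.13 for the members and 0.16 for immediate early genes, and Mt1 at 5.15 lies beyond the axis.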

How the data were processed

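Single-colour arrays of enterocyte RNA were deposited as 1 table of log2 values, which the authors made with GCRMA per the submitters' processing notes. For GCRMA no version or setting is stated in those notes. In the deposited log2 values the WT median of every probe set was 0, a centring that no label records. Levels, signal over background and a filter on dim probe sets were therefore out of reach. Array medians ran from -0.025 to 0.036. Sample titles gave the genotype and the array number.

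Of 18443 probe sets, 16689 carried 1 gene symbol in the platform annotation, 616 several and 1138 none, and only the first were named. Each probe set was fitted with limma 3.58.1 (genotype as the only term, two-sided), with Benjamini-Hochberg adjustment over all probe sets. Gene values were means of a gene's probe sets, fitted over 10401 genes. SEs are those of the pooled spread between arrays, before limma's moderation. The computation was tested on simulated data.

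The members and the lists (12 of pathways, 13 of cell type markers) were chosen with earlier results of these data known. All member probe sets are named. Of each pathway list, genes past the threshold or the 2 with the smallest p are named. Paralogs are given by range, some by name, and for Fkbp5 and Sgk1 the 3 closest genes. Mt2, Pdk4, Per1, Ndrg2, Scnn1a, Kcne3, Slc12a2, Kcnq1 and Nedd4 lay outside this rule and were chosen after their values were seen. The labels name no batch. P-values measure only the spread between these pools, since the labels do not say which pools came from separate litters or days. Alternatives were quantile normalization, median centring, array weights, a robust prior, the replicate number as a block, other probe set choices, a minimum of 1.5-fold, and arrays left out.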

Additional observations from a re-analysis of the deposited data

Results flagged for a closer look

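Dixon's ratio was taken in 90 groups of 4 arrays, each genotype apart. These were the 23 member probe sets and the 2 genes with the smallest p in each pathway list. Other genes named above, such as Hsd11b1, were not examined. In 4 groups 1 array lay far from the others, and chance alone marks about 1 in 20. Hsd11b2 read -0.071 on WT 4, with the other WT arrays between -0.001 and 0.004. Sesn1 1433711_s_at read -0.47 on IE-Cpr-null 2, and without this array the IE-Cpr-null arrays would still lie below every WT array. Txnip read 0.13 on IE-Cpr-null 1 where IE-Cpr-null 2 to 4 read 0.33 to 0.35. Slc26a3 read -0.27 on WT 3 against 0.004 to 0.020 on the other WT arrays, so that WT 3 lay below IE-Cpr-null 3 (-0.18).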

How the results depend on the processing

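Of 383 recomputed member differences, 374 moved by less than 1 standard deviation within genotypes and 9 by more: 5 of Klf9 without the hepatocyte-rich arrays, those of Sgk1, Sesn1 1433711_s_at and Tsc22d3 1420772_a_at with quantile normalization, and that of Zbtb16 1427638_at with array weights (0.28). The sign held in every setting for 14 of 23 member probe sets. Of 216 recomputed list medians, 208 moved by less than 1 standard deviation. Members past the threshold were 0 in all settings but array weights (2). Over the whole table limma's count of 4 became 1 with quantile normalization, 1 with the replicate block, 7 after a filter that kept the more variable 50% of probe sets and 741 with array weights, and it ran from 1 (without WT 1, 2 or 4) to 16 (without IE-Cpr-null 1) with 1 array left out, with 7 without IE-Cpr-null 2. Pathway genes past the threshold were 1, but 0 with quantile normalization and 32 with array weights. The cause of these changes was not tested. Whether replicate numbers pair the arrays was not settled. The correlation of same-numbered deviations was -0.058, -0.041, 0.26 and 0.13, and 4 of 8 arrays correlated best with their own number. The replicate block changed no call of a member or pathway gene. Pools of 2 mice and 4 arrays per genotype limit precision, and centring hides which probe sets were near background.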
